A study of Mus musculus with 12 samples.

Results

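Fibroblasts that lack both enzymes of the last step of triacylglycerol synthesis were converted to adipocytes, and their transcripts before and after conversion are described here. The D1D2KO cells, deficient in DGAT1 and DGAT2, gave 6 of the 12 arrays of the series, 3 undifferentiated and 3 differentiated. The response was taken as the differentiated minus the undifferentiated log2 signal over 19938 genes, each read by a probe set assigned to 1 gene, and the other 6 arrays, of wild-type (WT) cells in the same states, served as the reference for how far a change differed between the genotypes. All cells were mouse embryonic fibroblasts of the C57BL6 strain, taken at embryonic day 14 and grown in DMEM with serum. Differentiation started 2 days after confluence with dexamethasone (1 µM), isobutylmethylxanthine (500 µM), insulin (5 µg/ml) and troglitazone (15 µM) for 2 to 3 days, went on with insulin and troglitazone for 2 days, and ended in plain medium for a time that was not given. The labels call the D1D2KO and WT samples biological replicates without naming the embryo of each, and the p-values below therefore reflect only how much these samples scatter. They give no allele for D1D2KO and no array of cells that received only part of the mixture, so the effect of the agents cannot be told apart from that of conversion.

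Fat cells form from fibroblast-like precursors when glucocorticoid, raised cyclic AMP, insulin and a ligand of PPARγ switch on a cascade of transcription factors, in which C/EBPβ and C/EBPδ precede PPARγ and C/EBPα. The mature cell esterifies fatty acids to glycerol by way of lysophosphatidic acid, phosphatidic acid and diacylglycerol, and DGAT1 or DGAT2 adds the last acyl chain to make the triacylglycerol that fills the lipid droplet. Diacylglycerol can also go to phospholipids, be phosphorylated or be hydrolysed. Troglitazone is itself a PPARγ ligand, and dexamethasone and isobutylmethylxanthine supply the glucocorticoid and cyclic AMP signals.

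Samples of 1 group correlated at 0.993 to 0.997 across genes, against 0.953 to 0.957 between the 2 states of D1D2KO cells. Values are log2 array signals, and changes are differences of log2 values with their standard error (SE) from limma. A gene is called higher or lower, or said to rise or fall, where the p-value, adjusted by Benjamini and Hochberg across 19938 genes, was under 0.05. An array cannot separate a weak signal from background, so a fold change of a gene near 4, the lower quartile of the arrays, understates what a count would show. In cultures of this kind fewer cells of a type and less RNA per cell cannot be told apart.

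The targeted genes were still read on the arrays of D1D2KO cells. Dgat1 gave 5.56, 5.60 and 5.66 in the undifferentiated and 8.26, 8.03 and 7.75 in the differentiated samples, and Dgat2 gave 5.44, 5.50 and 5.51 and then 8.37, 8.62 and 8.66. In WT cells Dgat1 lay between 6.93 and 6.98 before and between 9.33 and 9.53 after differentiation, and Dgat2 between 5.94 and 5.98 and between 9.86 and 10.53, so each D1D2KO sample was below each WT sample of its state. The sources used here do not place the probes on the targeted alleles. A rise of 2.41 (SE 0.11) for Dgat1 and of 3.07 (SE 0.13) for Dgat2 in D1D2KO cells is of signal, and says nothing about protein.

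Differentiation changed a large part of the transcriptome of D1D2KO cells, with few very large falls and many large rises. Of 19938 genes, 3075 (15.4%) were called higher and 4236 (21.2%) lower, 36.7% together, but 4168 of these 7311 changed by less than 1.5-fold. At 2-fold or more, 710 genes (3.56%) rose and 584 (2.93%) fell. The asymmetry grew with size: 215 genes rose and 42 fell by 4-fold or more, and 38 rose and 2 fell by 16-fold or more. The 3 differentiated samples all lay above the 3 undifferentiated ones for 21.5% of genes and below them for 26.6%. The median change of all genes was 0.01.

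**Figure D1:**
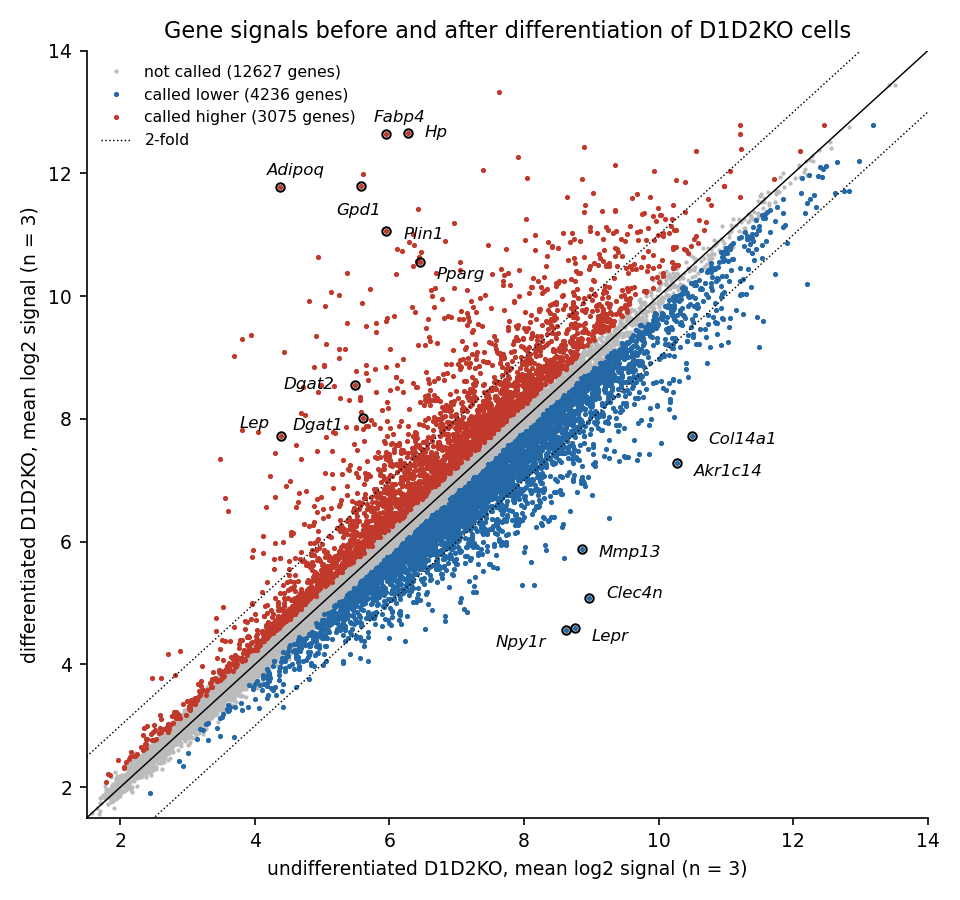
Mean log2 signal of each gene in undifferentiated (x axis) and differentiated (y axis) D1D2KO cells, 3 samples each; red points are genes called higher, blue points genes called lower, grey points genes not called, and dotted lines mark a 2-fold change. The 3075 red points reach much further from the diagonal than the 4236 blue ones. Adipoq, Fabp4 and Gpd1 end among the brightest signals on the arrays, whereas Lep, Dgat1 and Dgat2 end well below them.

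The largest rise was that of Adipoq, which encodes the fat hormone adiponectin. It read 4.11, 4.59 and 4.41 in undifferentiated and 11.85, 11.84 and 11.64 in differentiated samples, a rise of 7.41 (SE 0.12), or 170-fold (limma, adjusted p = 1.16e-16). Fabp4, the fatty acid carrier of fat cells, went from 6.10, 5.73 and 6.0 to 12.70, 12.71 and 12.52, a rise of 104-fold. Retn, which encodes resistin, and Hp, the hemoglobin-binding haptoglobin, each rose by 6.39. Gpd1, which makes the glycerol 3-phosphate that carries the fatty acids, rose by 6.22 from 5.75, 5.59 and 5.38 to 11.98, 11.90 and 11.50. In each of these genes the lowest differentiated sample lay far above the highest undifferentiated one, and samples of 1 state lay close together. That the states do not overlap was a condition of the choice of these genes.

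Other genes among the 15 largest rises fell into a few roles. Thrsp, a regulator of lipogenesis, rose by 5.70, and Plin1 and Cidec, which coat lipid droplets and let them grow, rose by 5.11 and 5.02. The receptors were Tshr, for thyrotropin, at 5.49 and Acvr1c, the activin receptor ALK7, at 5.42. Secreted acute-phase genes were Orm1 (5.34) and Lrg1 (5.11). The carbonic anhydrases Car3 (5.69) and Car5b (5.00), of cytosol and mitochondria, and the small amino acid transporter Slc36a2 (4.94) completed the group. Car3 was already at 7.96, 7.72 and 7.21 before differentiation and reached 13.34, 13.35 and 13.28.

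The largest fall was that of Lepr, the leptin receptor, from 8.80, 8.78 and 8.71 to 4.57, 4.75 and 4.43, a loss of 18.1-fold (difference -4.18, SE 0.09; limma, adjusted p = 1.1e-15). Npy1r, a neuropeptide Y receptor, went from 8.63, 8.67 and 8.57 to 4.75, 4.60 and 4.30 (difference -4.07). Both ended near the lower quartile of the arrays, where background limits a fold. The next falls were those of the myeloid lectin Clec4n (-3.88), the steroid dehydrogenase Akr1c14 (-2.99), the collagenase Mmp13 (-2.98) and the secreted C1q family member C1qtnf3 (-2.88). Egfl6 (-2.87), the urea transporter Slc14a1 (-2.86), the fibril-associated collagen Col14a1 (-2.76) and the brain-type fatty acid binding protein Fabp7 (-2.68) followed. The group ended with Prss35 (-2.46), the Wnt antagonist Dkk2 (-2.43), Gpr165 (-2.43), the matrix protein Smoc2 (-2.42) and the intermediate filament Gfap (-2.35).

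**Figure D2:**
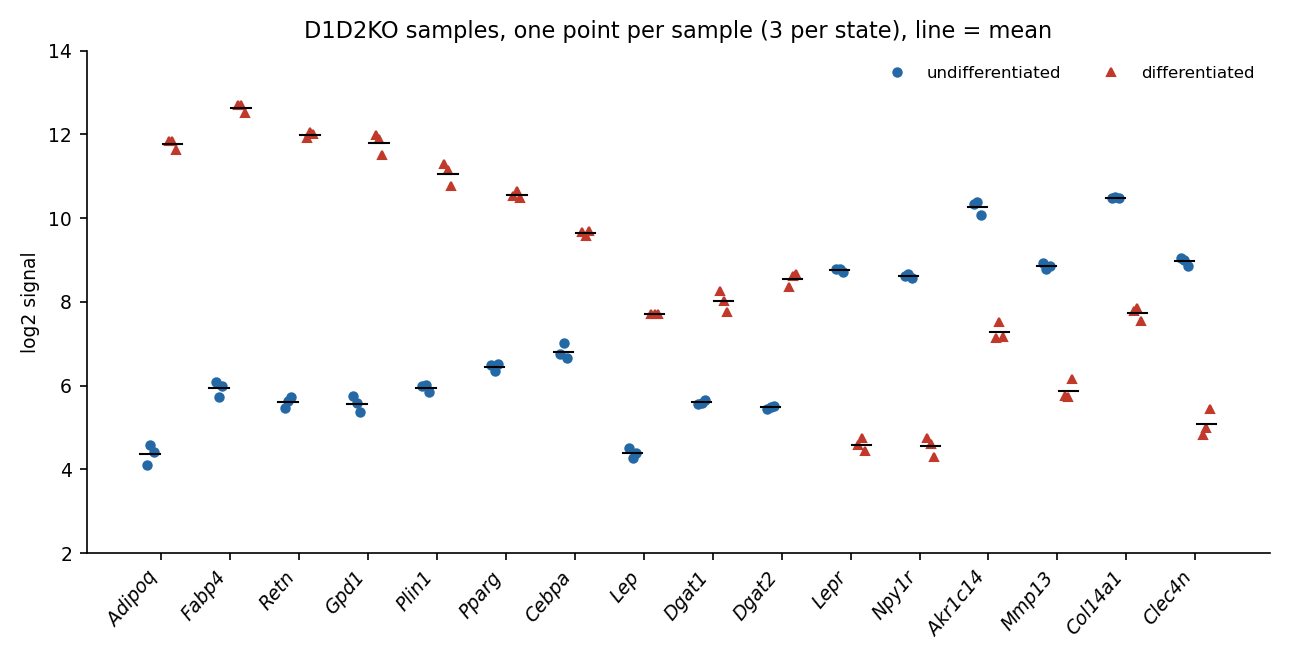
Log2 signal of 16 genes in each D1D2KO sample, with 3 undifferentiated (blue circles) and 3 differentiated (red triangles) samples per gene and a line at each mean. In all 16 genes the states do not overlap; Adipoq spans from 4.11 to 11.85 and Lepr runs the other way, from 8.80 down to 4.43.

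Transcription factors of adipogenesis rose while many inhibitors fell. Of 25 adipogenic factors, 17 were called higher and 2 lower, with a median change of 0.52, against shares of 15.4% and 21.2% over all genes. Pparg, the master regulator, read 6.48, 6.36 and 6.52 and then 10.53, 10.65 and 10.48, a rise of 17.2-fold. Cebpa, its partner in the late cascade, rose by 2.84, and the sterol sensor Nr1h3 (LXRα) by 2.66. The lipogenic factors Mlxipl (ChREBP) and Srebf1 rose by 1.80 and 1.69, and Ppargc1a, the coactivator of mitochondrial genes, rose by 1.56 from 4.94, 4.91 and 4.90 to 6.57, 6.57 and 6.29. The 2 factors that fell were Klf4 (-0.57) and Klf5 (-0.28), which act early in the cascade.

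Among 20 inhibitors of adipogenesis, 11 were called lower and 3 higher, with a median of -0.34. The ligand Wnt5a fell by 1.89, from 8.83, 8.87 and 8.82 to 7.12, 6.99 and 6.74. Zfp521, which restrains commitment of precursors, fell by 1.16, Hes1, the Notch effector, by 0.98 and Ctnnb1, which encodes β-catenin, by 0.74. Ddit3, the stress factor CHOP that can block C/EBP proteins, went the other way and rose by 0.99.

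The secreted hormones of fat were divided. Of 24 adipokine genes 14 were called higher and 6 lower. Besides adiponectin and resistin, Agt, the precursor of angiotensin, rose by 4.25, Lep (leptin) by 3.32, Angptl4, an inhibitor of lipoprotein lipase, by 2.59 and the growth factor Nrg4 by 2.41. The C1q family members C1qtnf2 and C1qtnf7 fell by 1.79 and 1.63 together with C1qtnf3. Lep was nearly the same in all differentiated samples, at 7.71, 7.72 and 7.72, against 4.52, 4.27 and 4.4 before, and its receptor Lepr thus moved in the opposite direction.

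The Lep promoter is shown because leptin is the hormone of the filled fat cell and rose here in cells deficient in both triacylglycerol-forming enzymes. The 250 bases before the RefSeq start (GRCm38.p6, chr6:29059971-29060220, + strand) are printed 5′ to 3′, with the palindrome TTGCGCAA, a site bound by C/EBP proteins, in capitals; its first base lies 55 bases before the start.
Lep: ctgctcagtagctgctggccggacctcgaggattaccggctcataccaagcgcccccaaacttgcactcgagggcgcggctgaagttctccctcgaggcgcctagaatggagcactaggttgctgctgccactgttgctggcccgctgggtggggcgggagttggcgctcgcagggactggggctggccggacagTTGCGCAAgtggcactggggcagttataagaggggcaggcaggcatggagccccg
This palindrome, searched on both strands, was in 0.204% of the 19116 windows of that length, from 15563 of the measured genes. A match is a description of these letters and shows no binding.

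Receptors of fat cell hormones went both ways. Of 28 genes for receptors of hormones and metabolites, 15 were called higher and 9 lower. The corticotropin receptor Mc2r went from 3.49, 3.48 and 3.47 to 7.20, 7.31 and 7.53, and its accessory protein Mrap from 4.92, 5.08 and 5.14 to 9.90, 9.89 and 9.73. Adipor2, an adiponectin receptor, rose by 3.22, Ffar4, which senses long-chain fatty acids, by 3.15, Ptger3, a prostaglandin E2 receptor, by 2.00 and Insr, the insulin receptor, by 1.44. After Lepr and Npy1r, the falls included the endothelin receptor Ednrb (-1.67), the serotonin receptor Htr1b (-1.58), the growth factor receptor Igf1r (-1.05) and the prostaglandin receptor Ptger4 (-0.82).

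In the pathway that ends at the missing enzymes, a gene of each earlier step rose. Of 23 genes of triacylglycerol synthesis 14 were called higher and 3 lower, with a median of 0.51. Glycerol supply rose through Gpd1 and through the glycerol channel Aqp7 (3.97) and Pck1 (3.86), the entry of glyceroneogenesis. The first acylation rose through Gpat3, from 5.00, 4.89 and 5.30 to 9.32, 9.35 and 8.98, a gain of 17.8-fold. The next rose through Agpat2, from 7.36, 7.45 and 7.38 to 12.12, 12.10 and 11.93, or 25.2-fold, and the phosphatase Lpin1, which yields diacylglycerol, rose by 3.19. Isoforms went apart at the same steps: Agpat4 (-0.38), Lpin2 (-0.41) and the lipid phosphatase Plpp1 (-1.0) fell.

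The routes by which diacylglycerol can leave without DGAT gave a divided picture. Of 23 phospholipid synthesis genes 5 rose and 10 fell. Chpt1, which makes phosphatidylcholine from diacylglycerol, rose from 6.38, 6.54 and 6.19 to 9.74, 9.77 and 9.70, or 10.3-fold, and Pcyt2, which supplies the ethanolamine branch, by 1.00. Among the enzymes that remodel phospholipid chains, Lpcat3 rose by 1.57, whereas Lpcat2 fell by 1.64, Mboat2 by 1.21, Lpcat1 by 0.76 and Mboat1 by 0.75. Of 15 diacylglycerol kinases and diacylglycerol-sensitive protein kinase C genes, 8 fell and 3 rose, none by 2-fold. Dgkd rose by 0.51, and Dgkh (-0.69), Prkcb (-0.89) and Prkca (-0.66) fell. Dgkz fell by 0.54 on its brighter probe set, but its other probe set changed by 0.051. Chpt1 rose in WT cells too, by 2.87, and its difference in response of 0.49 (SE 0.14) missed the threshold (limma, adjusted p = 0.1). In 25 genes of sphingolipid metabolism 5 rose (10 with array weights) and 9 fell, with a rise of 1.89 for Sptlc3, a subunit of the entry enzyme, and falls of 0.82 for the ceramide kinase Cerk and 0.74 for the ceramide synthase Cers6.

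Genes of the lipid droplet and of its breakdown rose together. Of 22 droplet protein genes 14 were called higher and 2 lower (median 0.97), and of 15 lipolysis genes 13 were called higher and 2 lower, with a median of 3.45, the highest of the pathway lists. Plin1 read 5.99, 6.03 and 5.85 before and 11.29, 11.15 and 10.76 after. G0s2, an inhibitor of the triacylglycerol lipase, rose by 4.67, and that lipase, Pnpla2, by 4.16. Plin4 rose by 3.75, the acylhydrolase Pnpla3 by 3.28 and Cidea, of the Cidec family, by 1.17, while Mest fell by 0.91.
The hormone-sensitive lipase Lipe rose by 4.2, and genes of the kinase and phosphodiesterase arms of the pathway rose with it. Prkar2b, a regulatory subunit of protein kinase A, went from 6.30, 6.28 and 6.29 to 10.85, 10.98 and 10.80. Pde3b, which mediates the antilipolytic action of insulin, rose by 3.45. Prkaca, also of protein kinase A, and the listed genes Adrb3 and Gnas were not measured. Gnai1, an inhibitory G protein subunit, rose by 2.93 and the monoacylglycerol lipase Mgll by 2.39. Lipa, the acid lipase of lysosomes, fell by 0.86.

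Promoters of Plin1, Cidec and Aqp7 are shown because these transcripts rose together, by 34.5-, 32.3- and 15.7-fold. Each line gives the 250 bases before a RefSeq start (GRCm38.p6), 5′ to 3′ on the gene's own strand. Capitals mark a match to TTGCNNAA, the letters of a C/EBP site, in Plin1 (chr7:79732777-79733026, - strand) and Cidec (chr6:113434765-113435014, - strand), and to GGNCANAGG on either strand, a short form of the element bound by PPARγ with RXR, in Aqp7 (chr4:41048137-41048386, - strand).
Plin1: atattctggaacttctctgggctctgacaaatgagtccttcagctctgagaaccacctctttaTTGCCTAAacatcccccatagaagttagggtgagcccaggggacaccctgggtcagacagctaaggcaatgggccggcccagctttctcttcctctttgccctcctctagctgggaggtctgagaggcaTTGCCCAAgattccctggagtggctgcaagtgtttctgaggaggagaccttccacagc
Cidec: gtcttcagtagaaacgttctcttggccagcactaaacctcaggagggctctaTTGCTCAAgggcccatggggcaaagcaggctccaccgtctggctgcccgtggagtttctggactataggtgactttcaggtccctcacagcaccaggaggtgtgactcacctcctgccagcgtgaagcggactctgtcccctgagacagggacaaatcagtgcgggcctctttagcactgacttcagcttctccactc
Aqp7: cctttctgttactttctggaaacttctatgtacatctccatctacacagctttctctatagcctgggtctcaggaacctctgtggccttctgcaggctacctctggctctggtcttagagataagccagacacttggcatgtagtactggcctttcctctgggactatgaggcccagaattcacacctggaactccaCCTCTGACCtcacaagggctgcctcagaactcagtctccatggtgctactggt
The matches begin 187 and 58 bases before the start in Plin1, 198 in Cidec and 53 in Aqp7. Cidec and Aqp7 have 2 RefSeq starts each. The window of the other Cidec start holds no C/EBP match, and that of the other Aqp7 start overlaps the one shown and holds the same match. Over all measured genes the PPARγ letters were in 7.46% of the windows. They were in 11.7% of the 695 windows of genes that rose by 2-fold or more, and in 4.79% of those of genes that fell by 2-fold or more. The C/EBP letters were in 8.67% of all windows and 10.1% of those of the 2-fold rises. In the 204 windows of genes that rose by 4-fold or more the PPARγ letters were in 10.3% and the C/EBP letters in 11.8%. These shares are descriptions, and genes with several starts give several windows.

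Genes of fatty acid uptake were among the larger rises. Cd36, the fatty acid translocase, went from 8.07, 7.92 and 7.74 to 12.25, 12.43 and 12.15 (20.6-fold), and Lpl, lipoprotein lipase, Fabp5 and the transporter Slc27a1 rose by 2.11, 2.79 and 2.42. Of 17 genes of uptake and binding, 8 rose and 3 fell. Activation rose less uniformly in the genes measured, with 10 of 22 acyl-CoA synthetase and thioesterase genes higher and 3 lower. The synthetase genes Acsl1 and Acsl3 are not among the 22, as neither had a probe set assigned to it alone. The acetyl-CoA synthetases Acss3 and Acss2 rose by 4.30 and 3.51, and Acot4 by 1.58, while Acsl5 fell by 0.56.

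Of 33 genes of fatty acid synthesis, elongation and desaturation, 22 rose and 7 fell, with a median of 1.09. Pcx, pyruvate carboxylase, which feeds citrate export, rose by 4.54 (23.3-fold), Elovl3, an elongase, by 4.0, Scd1, the main desaturase, by 3.54, Fasn, fatty acid synthase, by 2.84, the malic enzyme Me1 by 2.79 and the citrate carrier Slc25a1 by 2.38. Elovl3 was uneven, at 8.29, 7.90 and 7.25 in differentiated samples against 4.04, 3.68 and 3.71 before. The falls were led by Hacd4 (-1.35), of the elongation cycle, Elovl6 (-1.09), Fads2 (-0.73), Elovl5 (-0.72) and Fads1 (-0.49), the last 3 being enzymes of polyunsaturated chains. Elovl6, which extends palmitate, read 7.94, 7.97 and 7.82 and then 6.85, 6.75 and 6.87. It changed by -0.11 in WT cells, so its response was more negative in D1D2KO cells by 0.98 (SE 0.12; limma, adjusted p = 0.000501). Fads2, the first desaturase of polyunsaturated chains, changed by 0.09 in WT cells, a difference in response of -0.82 (SE 0.11; adjusted p = 0.000846).

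Cholesterol genes gave no common direction, with 8 of 22 called higher and 5 lower and a median of 0.08. The 5 falls became 3 without undifferentiated replicate 2 and without differentiated replicate 3. Insig1 and Insig2, which hold SREBP proteins in the endoplasmic reticulum, rose by 1.41 and 1.27, and Pmvk and Dhcr7, enzymes of the pathway, by 1.23 and 1.04. Srebf2, the factor that drives the pathway, fell by 0.63.

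Most mitochondrial genes rose. The calls were 24 of 26 higher for fatty acid oxidation (median 1.77), 30 of 32 higher for pyruvate entry and the tricarboxylic acid cycle (1.46), 34 of 35 for complex I (0.99), 14 of 14 for complexes II and III (1.43), 14 of 15 for complex IV (1.27), 15 of 16 for ATP synthase (0.91) and 70 of 77 for the mitochondrial ribosome (0.69). Ribosomal proteins of the cytosol did not share this: of 58, 18 fell, with a median of -0.13. The 18 falls became 10 without undifferentiated replicate 2.

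Within these classes the size of the rise differed by step. In oxidation, Acadm, the medium-chain dehydrogenase, went from 8.99, 9.06 and 9.02 to 11.68, 11.76 and 11.62, and Etfdh, which passes the electrons to the respiratory chain, rose by 1.78. The 2 falls were the carnitine palmitoyltransferases Cpt1a (-0.50) and Cpt1c (-0.80), the forms best known from liver and brain. In the cycle, Mpc1, a subunit of the pyruvate carrier, rose by 2.50, Idh3a, of isocitrate dehydrogenase, by 2.48 and Pdhb, of pyruvate dehydrogenase, by 2.46. The inhibitory kinase Pdk1 rose as well, by 2.14, and the activating phosphatase Pdp1 fell by 0.75.

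In the respiratory chain, Ndufb3 of complex I rose by 1.93 and Ndufc1 by 1.45, while Ndufa11, the only uncalled member of that list, changed by 0.06. Cycs, cytochrome c, rose by 2.32 (1.25 to 2.36 over its 3 probe sets) and Cyc1, of complex III, by 2.04. The largest rises were those of the tissue-specific subunits Cox7a1, from 5.53, 5.94 and 5.66 to 10.03, 10.29 and 10.06, and Cox8b, from 5.22, 4.68 and 4.92 to 8.45, 8.51 and 8.37. For ATP synthase, Atp5g3 rose by 1.33 and its inhibitor Atpif1 fell by 0.36. Mrpl38 and Mrpl51 of the mitochondrial ribosome rose by 1.23 and 1.20. The carriers of the inner membrane were mixed, with 22 of 46 higher and 8 lower (5 lower without differentiated replicate 3): the dicarboxylate carrier Slc25a10 rose by 2.80, whereas the aspartate-glutamate carrier Slc25a12 and the ATP-magnesium carrier Slc25a24 fell by 1.36 and 0.94.

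Breakdown of branched-chain amino acids, a source of acetyl-CoA for fat synthesis, rose in 25 of 27 genes (median 1.46). Aldh6a1, from 7.76, 7.77 and 7.67 to 10.90, 10.91 and 10.47, Hibch (2.79), the mitochondrial transaminase Bcat2 (2.71) and Bckdhb of the committing dehydrogenase (2.68) led it, and the 2 falls were those of the cytosolic transaminase Bcat1 (-1.14) and Abat (-0.58). Peroxisomal genes rose in 27 of 35 (median 0.74) and fell in 2. Pex11a, which divides peroxisomes, rose by 3.56, the very long-chain acyl-CoA transporter Abcd2 by 3.15 and the carnitine acetyltransferase Crat by 2.64, and Far1, of ether lipid synthesis, fell by 0.63.

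**Figure D3:**
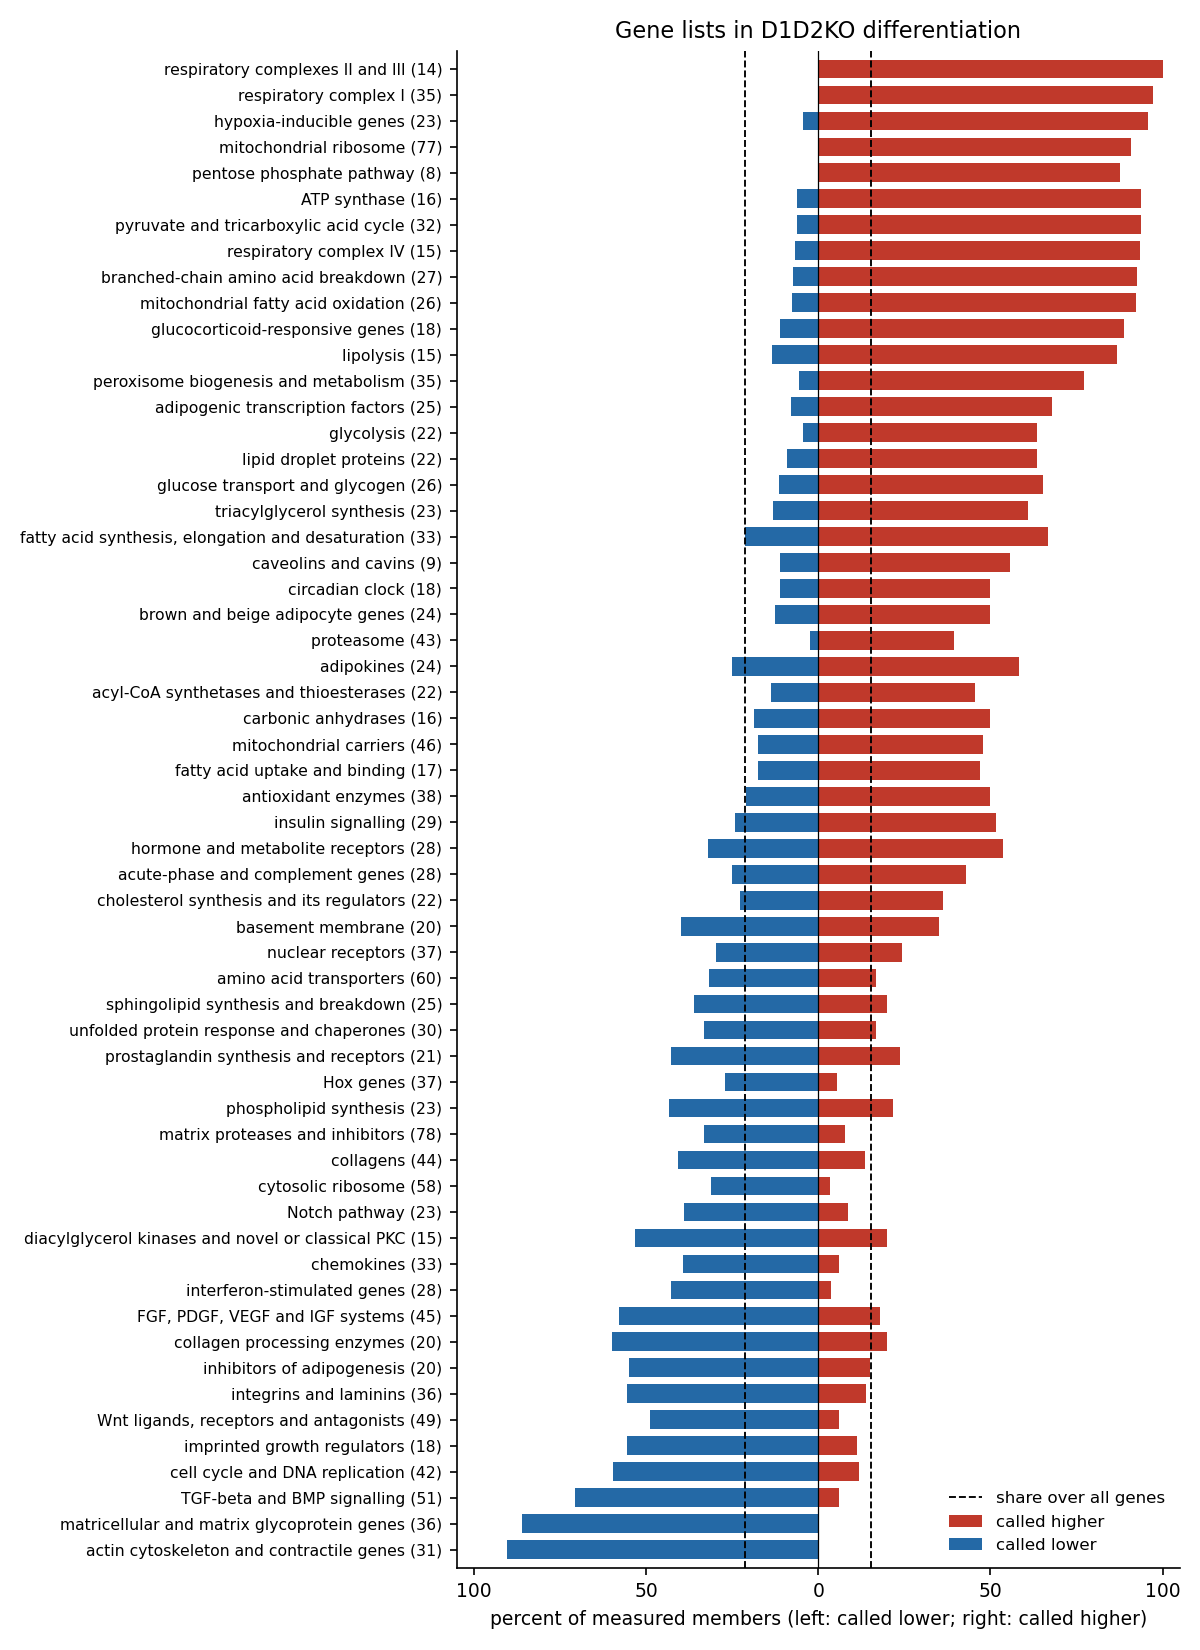
Percent of the measured members of each gene list called higher (red, right) and lower (blue, left) in D1D2KO differentiation, with the number of measured genes in brackets and dashed lines at the shares over all genes, 15.4% higher and 21.2% lower. Lists are ordered by the percent higher minus the percent lower. Respiratory chain, mitochondrial ribosome, hypoxia-inducible and pentose phosphate lists lie near the top. Lipid lists are spread, and those of phospholipid and sphingolipid synthesis had more members lower than higher. Matricellular and actin lists, with 31 of 36 and 28 of 31 members called lower, lie at the bottom.

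Glucose uptake, glycolysis and genes known to respond to hypoxia rose as well. Of 26 genes of glucose transport and glycogen 17 rose and 3 fell, of 22 of glycolysis 14 rose, and of 23 hypoxia-inducible genes 22 rose and 1 fell (median 1.23). Slc2a4, the insulin-regulated transporter GLUT4, read 5.63, 5.85 and 5.20 and then 8.54, 8.25 and 8.13, and Trarg1, which acts in its trafficking, rose by 3.76. In glycolysis, Pfkfb3, which makes the activator of phosphofructokinase, rose by 3.38, and Hk2, Aldoa and Pgk1 by 2.20, 1.80 and 1.58. The oxygen-sensing hydroxylase Egln3 went from 6.37, 6.64 and 6.10 to 10.78, 10.86 and 10.87 (22.1-fold), and Bnip3, of mitophagy, from 7.98, 8.37 and 7.78 to 11.96, 11.96 and 11.84. The single fall in that list was that of Hif1a, the transcript of the hypoxia factor itself, from 10.07, 10.02 and 10.04 to 8.97, 9.05 and 9.03. The labels give no oxygen level.

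Glycogen genes changed by isoform. The branching enzyme Gbe1 rose by 3.69, the liver-type phosphorylase Pygl by 3.64, the muscle-type synthase Gys1 by 2.75, the phosphatase targeting subunit Ppp1r3c by 2.53 and the primer Gyg by 1.11. The brain-type phosphorylase Pygb fell, from 9.56, 9.55 and 9.42 to 8.41, 8.38 and 7.98, and Pgm2 by 0.39. In the pentose phosphate pathway 7 of 8 genes rose, with Pgd, Tkt and Taldo1 at 1.70, 1.69 and 1.63.

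Insulin signalling changed members rather than moving as a block, with 15 of 29 genes higher and 7 lower. Irs3, the substrate found in rodent fat cells, rose by 1.52, from 4.99, 4.78 and 5.25 to 6.50, 6.67 and 6.42, while Irs1 fell by 0.85 on its brighter probe set and changed by -0.11 on the other. Tbc1d4, which links the kinase AKT to GLUT4, rose by 1.48 and the adaptor Sh2b2 by 1.45. Akt1 (-0.68), the phosphatase Ptpn1 (-0.72) and the adaptor Grb10 (-0.74) fell. Genes known to respond to glucocorticoids rose in 16 of 18 (median 1.39), with Lcn2 at 3.08, Pdk4 at 2.59 and Zbtb16 at 2.37. When dexamethasone was last present before harvest was not given.

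Caveolar genes, carbonic anhydrases, carriers and antioxidant genes had members among the rises. Cav2 rose from 6.42, 6.27 and 6.32 to 9.89, 9.88 and 9.68 and Cav1 by 2.14, with Cavin2 (1.74) and Ehd2 (1.31), the proteins that shape caveolae, and 5 of the 9 genes of that list rose. Car13 and Car2 rose by 1.73 and 1.62 among 8 of 16 carbonic anhydrases. Of 60 amino acid transporter genes 10 rose and 19 fell, the rises being near the share of all genes. The carriers of small neutral amino acids went both ways, with Slc36a2, Slc7a10 (2.51) and Slc1a5 (2.21) higher and Slc38a1 (-1.62) lower, and the cationic amino acid carriers Slc7a2 (-1.37) and Slc7a3 (-1.36) fell. Of 38 antioxidant genes 19 rose and 8 fell, with Mgst2 (2.62), Mgst1 (2.53) and the mitochondrial Sod2 (1.77) higher and Gpx8 (-0.92) and Gpx3 (-0.87) lower.

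The fibroblast side of the response was a broad fall of matrix, contractile and growth factor genes. Among 36 matricellular and matrix glycoprotein genes 31 were called lower and 0 higher, with a median of -1.01. By limma's unadjusted p under 0.05 the number higher was also 0. Ccn3 (-2.01), the thrombospondin Thbs2 (-1.80), Ccn2 (-1.72), Tnc, tenascin C (-1.68), the proteoglycan Lum (-1.33), Ccn1 (-1.15), the fibulin Fbln2 (-0.94) and Efemp1 (-0.76) fell. Ccn3 was among the brightest genes of undifferentiated cells, at 12.22, 12.20 and 12.22, and read 10.02, 10.23 and 10.36 after.

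Collagens fell more often than they rose, with 18 of 44 called lower and 6 higher. Among the rises, Col15a1, of the basement membrane zone, went from 7.13, 7.13 and 7.22 to 9.73, 9.73 and 9.54, and Col6a3, a chain of type VI collagen, rose by 1.30 and the basement membrane chains Col4a1 and Col4a2 by 1.02 and 0.96. The falls included the fibril-associated Col14a1, from 10.49, 10.50 and 10.49 to 7.78, 7.85 and 7.55, the network-forming Col8a1 (-1.77), the fibril-associated Col12a1 (-1.23) and the fibril chain Col1a2 (-1.12). Basement membrane genes as a list had no common direction, with 7 of 20 higher (4 without undifferentiated replicate 1), 8 lower and a median of -0.18. Of 20 enzymes that process collagen 12 fell and 4 rose, the prolyl hydroxylase P4ha3 by -1.59 and the lysyl hydroxylase Plod1 by 1.18. Of 78 matrix proteases and inhibitors 26 fell and 6 rose. Mmp13 went from 8.94, 8.80 and 8.86 to 5.74, 5.73 and 6.17, and Mmp3 (-2.0), Mmp16 (-1.85), the inhibitor Timp2 (-1.59) and Mmp2 (-1.37) fell, while the membrane proteases Adam8 and Adam12 rose by 1.34 and 1.32. Of 36 integrin and laminin genes 20 fell, with Itga8 (-1.79), Itga4 (-1.48), Itgav (-1.32) and Itga5 (-0.80) lower and Itga7 (0.87) higher.

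Of 31 genes of the actin cytoskeleton and contraction, 28 were called lower and 0 higher (median -0.89), and by limma's unadjusted p under 0.05 the number higher was also 0. Myl9, a myosin light chain, fell from 10.23, 10.25 and 10.01 to 8.36, 8.32 and 8.15, and Tpm1, tropomyosin, by 1.41. Falls were also called for Tagln (-1.30), the crosslinker Actn1 (-1.30), Cald1, which encodes caldesmon (-1.19), and the myosin heavy chain Myh9 (-1.06, and -0.53 on its other probe set). The part of TEAD proteins, which work with YAP, in these falls was not tested. The Cald1 promoter is shown because GGAATG, the letters of a TEAD site, stood out in the list, a choice made after the shares were seen. The 250 bases before one of its 2 RefSeq starts (GRCm38.p6, chr6:34598254-34598503, + strand) have GGAATG in capitals, beginning 153 bases before the start.
Cald1: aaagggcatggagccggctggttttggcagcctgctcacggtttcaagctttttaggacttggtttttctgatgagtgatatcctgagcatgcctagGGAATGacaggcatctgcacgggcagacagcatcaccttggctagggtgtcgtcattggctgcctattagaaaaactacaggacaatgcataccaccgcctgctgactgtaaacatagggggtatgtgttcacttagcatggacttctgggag
The window of the other Cald1 start holds no match to these letters, and a match shows no binding. GGAATG, on either strand, was in 42.9% of the 28 windows of the actin list and 11.4% of all windows.

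Genes of several signalling pathways fell as well. Of 51 genes of TGF-β and BMP signalling 36 were called lower and 3 higher, among the latter Acvr1c. Tgfb3 fell by 1.58, from 9.38, 9.53 and 9.27 to 7.95, 7.98 and 7.51, Inhba by 1.44, Bmp4 by 1.26, the receptor Tgfbr2 by 1.13 and the latent binding protein Ltbp2 by 0.93. Of 49 Wnt ligands, receptors and antagonists 24 fell: Dkk2 (9.96, 9.87 and 9.77 to 7.47, 7.40 and 7.41), Lgr5 (-2.12), Sfrp4 (-1.99), Wnt5a and Sfrp1 (-1.77) fell, so this ligand and these secreted antagonists moved the same way, and the receptor Fzd4 rose by 0.63. In the Notch pathway 9 of 23 fell, with Dner from 8.49, 8.52 and 8.68 to 6.21, 6.08 and 6.44, Hey2 (-1.25) and Notch2 (-0.77), and Notch3 rose by 0.41.

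Of 45 genes of the FGF, PDGF, VEGF and IGF systems 26 fell and 8 rose. Pdgfd (-1.89), Igfbp5 (-1.57), Nrg1 (-1.54) and the receptor Pdgfrb (-1.07) were lower, and Fgf10 (1.46), which acts on preadipocytes, and the receptor Met (1.35) higher. Of 42 genes of the cell cycle and DNA replication 25 fell and 5 rose, all falls being under 2-fold: Cdk6 (-0.75), Top2a (-0.73, and -0.29 on its other probe set), Mcm4 (-0.73) and Ccnd1 (-0.66). The cell cycle inhibitor Cdkn2c went the other way, from 7.05, 7.14 and 7.07 to 9.52, 9.69 and 9.68. Of 37 nuclear receptors 9 rose and 11 fell, and the receptors of sex steroids were among the lower ones, with Pgr from 7.09, 7.32 and 7.03 to 4.86, 4.76 and 4.95 and Esr1 (-1.67) lower. In the clock, Bhlhe40 and Nfil3 rose by 1.65 and 1.53 and Nr1d2 fell by 0.93.

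Immune genes were called lower more often than higher, and most markers of macrophages fell. Of 28 interferon-stimulated genes 12 were called lower and 1 higher, and Ifit3 went from 6.15, 6.12 and 6.65 to 5.08, 5.39 and 5.50. Of 33 chemokines 13 fell, with Ccl3 (-1.88) and Cxcl13 (-1.57) lower and Ccl11 (0.95) higher. Of 16 macrophage markers 14 fell and 1 rose, and their mean log2 signal lay between 9.01 and 9.07 in undifferentiated and between 7.96 and 8.03 in differentiated samples. Lyz2, a lysozyme of macrophages, went from 11.59, 11.44 and 11.44 to 9.23, 9.11 and 9.18, the receptor Csf1r from 10.18, 10.11 and 10.16 to 8.50, 8.55 and 8.70, and Adgre1, which encodes F4/80, from 9.81, 9.73 and 9.63 to 8.69, 8.71 and 8.53. These defining markers were well above the lower quartile of the arrays in both states although the labels name fibroblasts and adipocytes. The part of macrophages in the falls of immune genes was not tested.

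A more negative response than in WT cells was called for 6 of the 28 interferon genes, against 0.712% of all genes, and the other 22 missed the threshold. The 6 became 2 to 14 when 1 sample was left out (14 without WT differentiated replicate 3) and 3 with the replicate number as a block. The median change of the list was -0.22 in D1D2KO and 0.22 in WT cells. Ifih1 and Gbp3, a sensor and a GTPase of this list, had called differences of -0.71 (SE 0.14; limma, adjusted p = 0.016) and -1.05 (SE 0.15; adjusted p = 0.00235), with changes in D1D2KO cells of -0.22 and -0.23 that missed the threshold and rises in WT cells of 0.49 and 0.83. The Ifit3 promoter is shown as an example of the list. The 250 bases before its start (GRCm38.p6, chr19:34583279-34583528, + strand) have 3 matches to GAAANNGAA on the opposite strand in capitals, the letters of the interferon-stimulated response element, beginning 155, 121 and 102 bases before the start.
Ifit3: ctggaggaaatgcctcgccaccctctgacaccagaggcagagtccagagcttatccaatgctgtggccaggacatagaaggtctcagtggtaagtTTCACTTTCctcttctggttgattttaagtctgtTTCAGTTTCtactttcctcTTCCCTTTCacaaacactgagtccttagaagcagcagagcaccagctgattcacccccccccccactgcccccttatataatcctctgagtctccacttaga
These letters were in 35.7% of the 28 windows of the interferon list and 6.79% of all windows.

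Secreted defence genes went both ways. Of 28 acute-phase and complement genes 12 rose and 7 fell: beside Hp, Orm1 and Lrg1, the heme carrier Hpx rose by 1.71, and the complement inhibitor Serping1 (-1.29) and Saa3 (-1.22) fell. In prostaglandin metabolism 9 of 21 fell and 5 rose. Ptgs2, the inducible cyclooxygenase, went from 8.57, 8.88 and 8.19 to 6.71, 6.77 and 6.87, the degrading enzyme Hpgd from 10.28, 10.13 and 10.11 to 8.12, 8.21 and 8.63 and the prostaglandin D synthase Hpgds fell by 1.25, while the prostaglandin E synthase Ptges rose by 1.58.

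Imprinted growth regulators mostly fell, with 10 of 18 lower, and a cluster of microRNA genes fell with them. This set and the microRNA genes named here were chosen after their values were seen. MicroRNAs are short RNAs that pair with messages through their seed, bases 2 to 8, and these arrays read the precursor region or its host transcript, not the mature microRNA. Of 300 microRNA genes 15 were called higher and 42 lower, both smaller shares than the 15.4% and 21.2% over all genes. The host genes Mir100hg, Mir17hg, Mir670hg and Mir99ahg, which yield long transcripts, are counted among the 300, and Mir99ahg (-0.41) is among the 42. The 40 between Dlk1 and Dio3, an imprinted domain in which the maternal chromosome expresses the long RNAs Meg3 and Rian and many microRNAs, had 23 lower (57.5%), 38 of 40 estimates below 0 and a median of -0.34. The other 260 had 19 lower (7.31%, itself under the 21.2% of all genes) and 15 higher and a median of 0.01. The 40 share transcripts and are not independent of each other. Meg3 fell by 0.75, from 10.55, 10.55 and 10.59 to 9.76, 9.77 and 9.91, and Rian by 0.90. Dlk1, which encodes an inhibitor of adipogenesis from the paternal chromosome, fell by 0.27 (limma, adjusted p = 0.0133), a call that ended without undifferentiated replicate 3 (-0.23, adjusted p = 0.0702).

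The mature sequences of microRNA genes with large or paired changes are given here from RefSeq (GRCm38.p6), 5′ to 3′, with the seed in capitals. The first 3 come from precursors of the Dlk1-Dio3 domain whose signal fell, and the next 3 each from a precursor whose signal rose. miR-708-5p and miR-28a-5p are shown for the seed they share. miR-218-5p and miR-99a-5p come each from a precursor outside the domain whose signal fell. No signal of a mature arm was measured.
miR-380-3p: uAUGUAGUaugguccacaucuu
miR-377-3p: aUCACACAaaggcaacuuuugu
miR-382-5p: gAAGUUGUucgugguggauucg
miR-148a-3p: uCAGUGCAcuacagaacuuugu
miR-103-3p: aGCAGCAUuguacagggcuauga
miR-365-3p: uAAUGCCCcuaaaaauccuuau
miR-708-5p: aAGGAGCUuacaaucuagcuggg
miR-28a-5p: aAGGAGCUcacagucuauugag
miR-218-5p: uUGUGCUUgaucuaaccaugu
miR-99a-5p: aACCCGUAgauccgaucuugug
Mir708, the largest rise, went from 4.95, 5.12 and 5.06 to 7.23, 7.29 and 6.84, and Mir28a, whose 5p arm has the same seed AGGAGCU, fell from 4.56, 4.4 and 4.48 to 4.19, 4.11 and 4.16. Mir148a rose by 1.18, Mir365-2 by 0.86 and Mir103-1 by 0.81. Mir218-1 (-1.17), Mir380 (-0.76), Mir99a (-0.74), Mir377 (-0.71) and Mir382 (-0.67) fell. Sister genes named as second copies of 3 of these were not called, with changes of -0.0047 for Mir103-2, which was brighter than Mir103-1, -0.19 for Mir365-1 and 0.043 for Mir218-2. Mir148a stayed weak in both states, at 2.61, 2.48 and 2.72 and then 4.02, 3.87 and 3.46, so its size is uncertain.

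**Figure D4:**
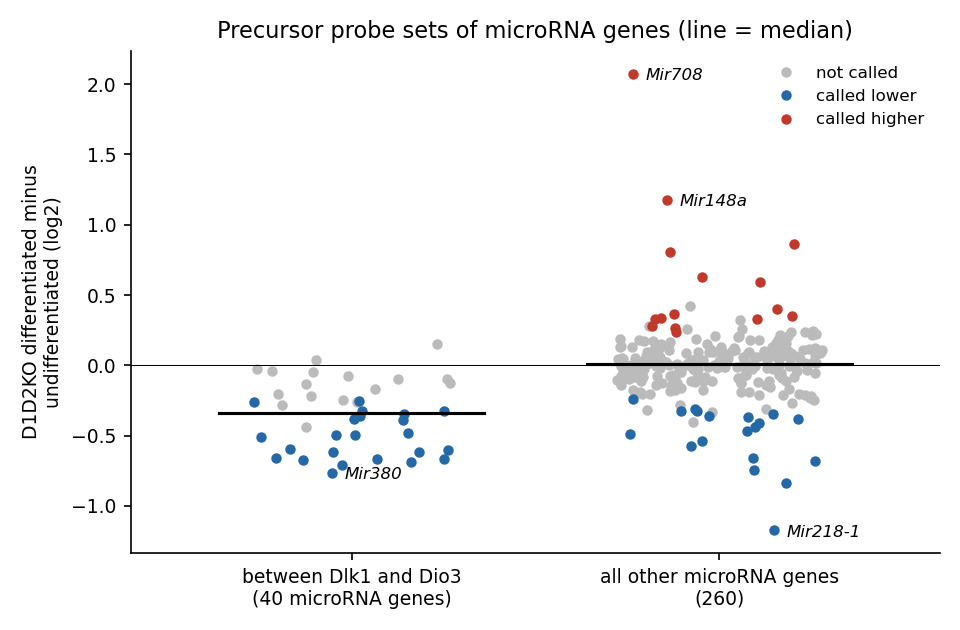
Differentiated minus undifferentiated log2 signal of the probe sets of 300 microRNA genes in D1D2KO cells, split into the 40 genes between Dlk1 and Dio3 and the 260 others, which include a few host genes. Blue points are called lower, red points called higher, grey points not called, and the line is the median. The 40 lie almost wholly below 0, with a median of -0.34 against 0.01 for the others; the horizontal scatter carries no value.

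Markers of adipocytes and of other cell types were read in RNA of whole cultures, which does not give the share of cells converted. All 18 measured adipocyte markers rose, and their mean log2 signal went from between 6.04 and 6.14 to between 10.59 and 10.84. Of 18 fibroblast markers 16 fell, yet their mean stayed between 9.85 and 10.00 after differentiation, against 10.69 to 10.74 before, so fibroblast transcripts remained bright in the differentiated cultures. Skeletal and cardiac muscle markers fell in 10 of 18 and neural markers in 8 of 13, among them Gfap, from 8.33, 8.26 and 8.34 to 5.94, 5.98 and 5.94. Of 8 liver and blood markers 4 rose and 0 fell, but 3 of the 8 lay under the lower quartile of the arrays in both states. Of 24 genes of brown and beige fat 12 rose and 3 fell, the latter with Dio2, a thyroid hormone deiodinase, at -1.86.

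A difference in response between the genotypes was called for few genes. It was called for 291 of 19938 genes (1.46%), 149 (0.747%) more positive and 142 (0.712%) more negative in D1D2KO cells. Of the 149, 119 were among the genes that rose in D1D2KO cells, and of the 142, 118 were among those that fell; the difference contains the D1D2KO change itself, so these counts are a description. Of the 710 genes that rose by 2-fold or more in D1D2KO cells 471 also did so in WT cells. After differentiation the mean log2 signal of the adipocyte markers was 10.59 to 10.84 in D1D2KO and 10.27 to 10.52 in WT samples. That of the fibroblast markers was 9.85 to 10.00 in D1D2KO and 10.19 to 10.26 in WT samples. A different extent of conversion in the genotypes cannot be told apart from other differences in response, and it was not tested. Of the 291 calls 134 were kept in each of the 12 fits that left out 1 sample, and the genes named next are among these.

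**Figure D5:**
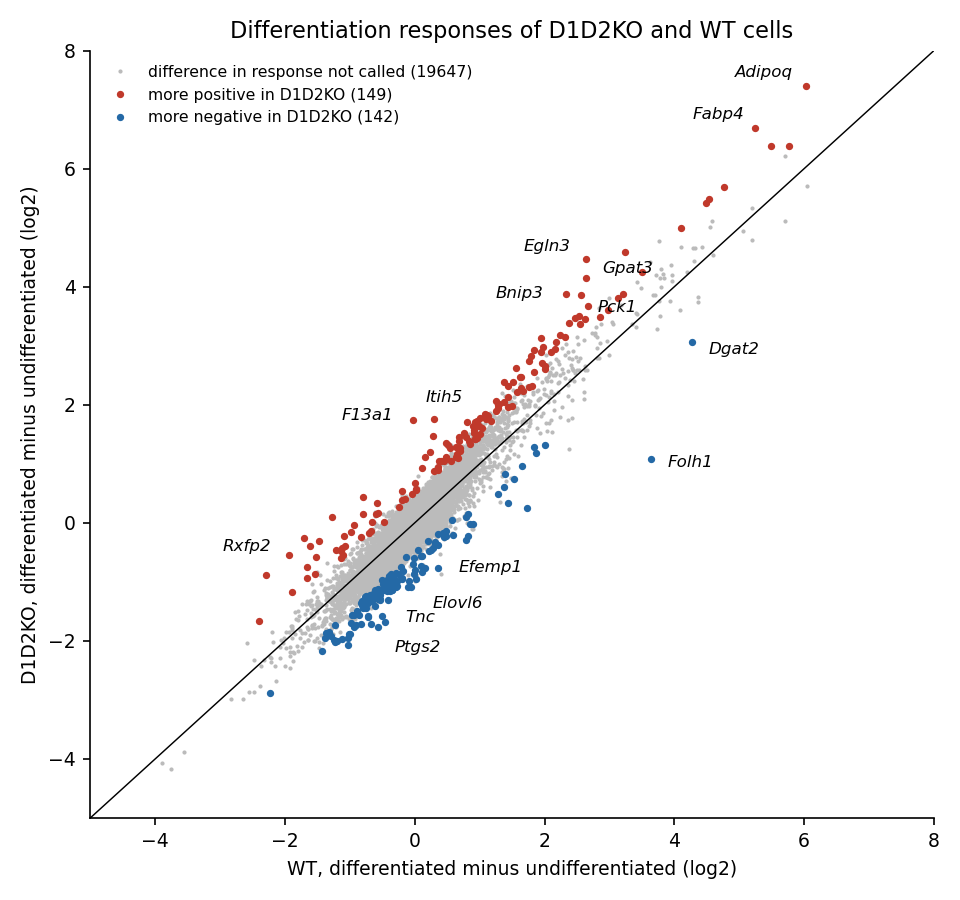
Differentiation response (differentiated minus undifferentiated, log2) of each gene in WT (x axis) and D1D2KO cells (y axis), with 3 samples per group; red and blue points are the 149 and 142 genes whose response was more positive or more negative in D1D2KO cells, and the line marks equal responses. Of the red points 119 were called higher in D1D2KO cells and of the blue points 118 lower, with Dgat2 and Folh1 as rises that were smaller in D1D2KO cells.

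Several of the genes with a more positive response are known from hypoxia, fat or fuel use. Egln3 rose by 4.47 against 2.64 in WT cells, a difference of 1.82 (SE 0.17; limma, adjusted p = 0.000103), Bnip3 by 3.88 against 2.34 (difference 1.54), and Pfkfb3 by 3.38 against 2.38 (1.00). Gpat3, the first acylation step, rose by 4.16 against 2.64 (1.52, SE 0.20), Fabp4 by 6.70 against 5.24 (1.45), Adipoq by 7.41 against 6.03 (1.38), Prkar2b by 4.59 against 3.24 (1.35) and Pck1 by 3.86 against 2.56 (1.30). F13a1, a coagulation factor subunit, rose by 1.74 in D1D2KO cells and changed by -0.03 in WT cells (difference 1.77), and Itih5, a hyaluronan-binding protein, by 1.76 against 0.30 (1.46). Smaller differences of the same sign were called for the lipolysis genes Gnai1, Mgll and Pde3b, the receptors Tshr, Acvr1c and Ffar4, the glycogen genes Gys1 and Gyg and the mitochondrial genes Cycs, Cyc1, Idh3a, Etfdh, Acadm and Ndufc1, all between 0.63 and 1.08.

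Among the 142 genes with a more negative response were 14 of the 31 actin and contractile genes (9 without WT undifferentiated replicate 1) and 7 of the 36 matricellular genes, against 0.712% of all genes. Tnc fell by 1.68 against a change of -0.47 in WT cells (difference -1.22, SE 0.15; limma, adjusted p = 0.000762), Ptgs2 by 1.77 against -0.57 (-1.20), Htr1b by 1.58 against -0.50 (-1.08) and Ccn2 by 1.72 against -0.68 (-1.04). Efemp1 fell by 0.76 in D1D2KO cells while it changed by 0.35 in WT cells (-1.11). Contractile genes of this kind were Myl9, Tpm1, Tagln, Actn1, Myh9 and Cald1, with differences between -0.88 and -0.57.

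Some genes changed less in D1D2KO than in WT cells. Folh1, a carboxypeptidase, rose by 3.64 in WT cells but by 1.09 in D1D2KO cells, from 4.96, 4.79 and 5.04 to 6.14, 6.28 and 5.63, the most negative difference of all (-2.55, SE 0.25; limma, adjusted p = 0.000103). Dgat2 rose by 3.07 against 4.27 (-1.20, SE 0.18). Ednrb and Rxfp2, a relaxin family receptor, fell less in D1D2KO cells, with differences of 0.72 and 1.39. Pparg rose by 4.10 in D1D2KO and 3.97 in WT cells, a difference of 0.13 (SE 0.14) that was not called (limma, adjusted p = 0.848).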

How the data were processed

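RNA of 12 fibroblast cultures was hybridised to single-colour whole-transcript arrays. The authors deposited 1 table of values per probe set, on what the range (1.152553 to 14.17221) shows to be a log2 scale; the sources used here do not state how they made the arrays comparable, and nothing was normalised again. Of 35556 probe sets 21789 were assigned to 1 gene, 1621 to several and 12146 to none listed, and 21698 of the 21789 gene IDs matched RefSeq. For the 999 genes with several probe sets the one with the highest mean was used, which left 19938 genes. Column medians lay between 5.61 and 5.69. With arrays, 3 samples per group limit the precision.

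limma 3.58.1 (R 4.3.3) was fitted to all 12 samples with 4 group means, and p-values were two-sided and adjusted by Benjamini and Hochberg. The members and gene lists were chosen with earlier results of these data known. Named genes were the targeted genes, the 15 largest rises and 15 largest falls without overlap of samples (predicted genes left out), the 10 most positive and 10 most negative called differences in response, up to 6 rises, 6 falls and 3 uncalled genes per list, and list members with a called difference in response. Deviations of same-numbered D1D2KO samples of the 2 states correlated weakly (0.101, 0.11 and 0.176, against -0.147 to 0.0522 for unequal numbers). They were taken from the mean of each group, so values for equal and unequal numbers depend on each other and do not settle whether samples are paired. The main fit did not pair samples, and the replicate number entered only as a block in 1 alternative. Alternatives changed the scaling, filter, probe set rule, samples, variance prior, weights and block. Promoters were the 250 bases before RefSeq starts (GRCm38.p6).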

Additional observations from a re-analysis of the deposited data

Results flagged for a closer look

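Among the genes named in the report, 66 had a response that differed between the genotypes by the test of the difference itself (limma, D1D2KO minus WT, log2). The difference was positive for Egln3 (1.82), F13a1 (1.77), Bnip3 (1.54), Gpat3 (1.52), Itih5 (1.46), Fabp4 (1.45), Rxfp2 (1.39), Adipoq (1.38), Prkar2b (1.35), Pck1 (1.30), Gnai1 (1.08), Cav2 (1.01) and Pfkfb3 (1.00). Below 1 it was positive for Gys1 (0.98), Cox8b (0.98), Tshr (0.96), Acvr1c (0.94), Car3 (0.92), Hpx (0.90), Hp (0.89), Car5b (0.89), Cycs (0.88), Mgll (0.88), Met (0.87), Idh3a (0.85), Pde3b (0.83) and Ffar4 (0.83). The smallest positive ones were those of Car13 (0.76), Ednrb (0.72), Cdkn2c (0.71), Etfdh (0.68), Pgk1 (0.66), Cyc1 (0.66), Ndufc1 (0.66), Acadm (0.66), Gyg (0.63) and Retn (0.62).

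It was negative for Folh1 (-2.55), Tnc (-1.22), Dgat2 (-1.20), Ptgs2 (-1.20), Efemp1 (-1.11), Htr1b (-1.08), Gbp3 (-1.05), Ccn2 (-1.04) and Elovl6 (-0.98). Smaller negative ones were those of Ccl3 (-0.88), P4ha3 (-0.88), Myl9 (-0.88), Tgfb3 (-0.86), Sfrp1 (-0.83), Fads2 (-0.82), Itga5 (-0.81), Mmp3 (-0.80), Tpm1 (-0.79), Ccn1 (-0.79), Tagln (-0.77), Actn1 (-0.76), Ltbp2 (-0.74), Ifih1 (-0.71), Col12a1 (-0.69), C1qtnf3 (-0.66), Myh9 (-0.62), Fbln2 (-0.61), Cald1 (-0.57) and Bcat1 (-0.52). The calls of Retn, Hp, Car3, Hpx, Mmp3, C1qtnf3 and Bcat1 ended in at least 1 of the 12 fits that left out a sample, and the others held in all 12. The call of Bcat1 also ended with the replicate number as a block (adjusted p = 0.058).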

How the results depend on the processing

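The numbers of genes called higher and lower in D1D2KO cells ranged from 2704 to 3219 and from 3772 to 4410 when 1 sample was left out, and those changed by 2-fold or more from 673 to 765 and from 578 to 598. A test against a 2-fold minimum called 443 higher and 237 lower. The difference in response was less stable. Its 291 calls ranged from 159 (without WT undifferentiated replicate 1) to 449 (without WT differentiated replicate 3), the more positive ones from 77 (without WT undifferentiated replicate 2) to 248 (without D1D2KO differentiated replicate 3) and the more negative ones from 76 (without WT undifferentiated replicate 1) to 236 (without WT differentiated replicate 3). It gave 537 calls (261 and 276) with genes above the median signal, 450 (229 more negative) with a trended and robust prior and 604 (327 and 277) with array weights; the cause was not tested. With the replicate number as a block, 3177 genes were higher, 4302 lower and 265 differed in response. Centring each array shifted the median change by 0.04 and left 11 of the 58 cytosolic ribosome genes lower. Of 268 counts over gene lists, those of differences in response included, 85 moved by over 1.5 times in at least 1 alternative, many of them counts of a few genes. The uncalled changes of Mir103-2 and Mir218-2 lay around 0 and had no stable sign: Mir103-2 was at 0.030 with each array centred, 0.024 after quantile normalisation, 0.0017 with array weights and -0.11 to 0.079 when 1 sample was left out, and Mir218-2 at -0.077 with array weights and -0.032 to 0.14 when 1 sample was left out. The arrays give no read depth, and changes near background are the least certain.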
